A study of Mus musculus with 48 samples.

Results

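Cyproheptadine and loxapine, both tricyclic drugs of the set that the study called Group A from its metabolite profiles, were compared with each other in RNA-Seq data of striatal cells carrying mutant huntingtin. The comparison used 6 of the 48 samples, 3 with each compound, chosen by the compound named in their labels. All 6 samples were STHdhQ111 cells treated for 24 hours in serum-free medium with 10 µM of the compound. STHdhQ111 is a conditionally immortalized line of murine striatal progenitor cells, of strain C57BL/6, homozygous for a knock-in of huntingtin with an expanded polyglutamine tract, so each condition describes 1 cell line. The 48 samples cover 16 conditions in triplicate, which are 14 compounds and vehicle in STHdhQ111 cells, and vehicle in STHdhQ7 cells, which carry huntingtin of normal length. The main reference conditions are STHdhQ111 cells with vehicle (DMSO), 10 µM selisistat, 0.5 nM nicotinamide, 1 nM nortriptyline or 10 µM diacylglycerol kinase inhibitor II (DKI), also for 24 hours without serum. Levels in the same slots are also given for 4 mM 4-deoxypyridoxine, 250 µM cysteamine, 1 mM sodium butyrate, 250 nM fingolimod phosphate, 0.5 nM haloperidol, 10 µM meclizine, 5 µM pizotifen and 10 nM trichostatin A. The labels do not say whether the 3 samples of a compound came from separate cultures. The p-values rest on the spread between samples of the same condition, pooled over all 16 conditions, and not on a known spread between cultures.

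Samples were collected on 3 days and at 3 times a day, and the 2 compounds shared no slot of day and time. Replicates 1 to 3 of cyproheptadine came from day 3 time 1, day 2 time 2 and day 3 time 3. Those of loxapine came from day 1 time 3, day 2 time 1 and day 3 time 2. A difference between the compounds and a difference between their slots therefore cannot be told apart in these 6 samples alone. As a reference, the mean of nicotinamide and nortriptyline, collected in the slots of loxapine, was set against the mean of vehicle and selisistat, which include the slots of cyproheptadine replicates 2 and 3. This slot contrast used no sample of either compound.

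Cyproheptadine is an antihistamine that also blocks serotonin receptors, and loxapine is an antipsychotic. Both have 2 outer aromatic rings fused to a larger central ring. The central ring of cyproheptadine is all carbon and is joined by a double bond to an N-methylpiperidine. That of loxapine holds an oxygen and a nitrogen, is joined to an N-methylpiperazine, and an outer ring carries a chlorine. Both are cationic amphiphilic amines, a class of drugs known to collect in lysosomes and to disturb cholesterol traffic.

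Several transcriptional programmes recur in the results. Interferon-stimulated genes are switched on by a complex that holds the factors STAT2 and IRF9 and binds response elements in their promoters, and their products sense viral nucleic acids or block viral growth. The integrated stress response begins with phosphorylation of the initiation factor eIF2, after which translation of the factor ATF4 rises and ATF4 induces genes of amino acid supply. Enzymes of cholesterol synthesis are induced by SREBP2 when sterol in the endoplasmic reticulum (ER) is low.

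Values are the authors' normalized abundances on the log2 scale, in which a difference of 1 is a 2-fold change. This was the 1 pair of compounds compared, at the same dose and time of treatment. Differences are cyproheptadine minus loxapine, from a limma model of all 48 samples with the collection day. Of 13409 genes tested, 1405 (10.5%) differed at an adjusted p under 0.05, 659 (4.91%) higher and 746 (5.56%) lower with cyproheptadine. The larger differences lay mainly on the lower side. Of the genes called, 199 differed by more than 0.5 in size, 33 higher and 166 lower, and of 43 that differed by more than 1, 1 was higher. The median difference over all genes was 0.0031. For 7971 genes (59.4%), the 95% interval of the difference lay within ±0.25, a 1.19-fold change in either direction. Groups did not overlap for 4374 genes (32.6%). Correlations between samples over all tested genes were 0.9982 to 0.9991 within cyproheptadine, 0.9991 to 0.9994 within loxapine and 0.9964 to 0.9981 between them.

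**Figure D1:**
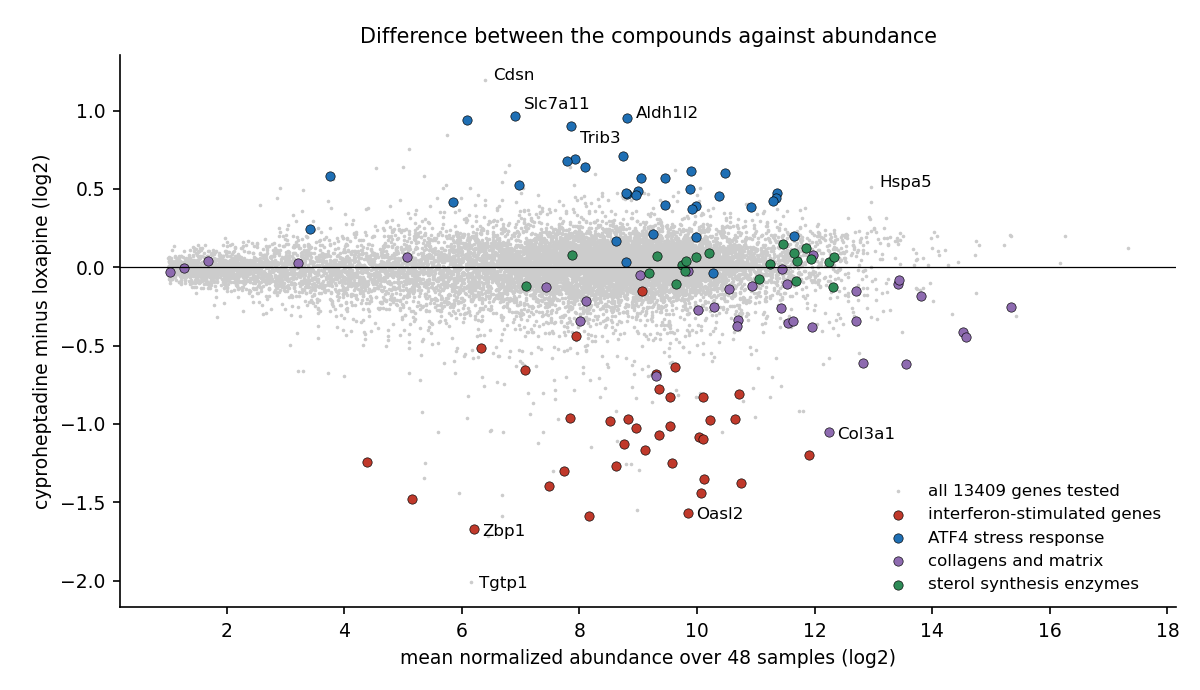
Each point is a gene, with its mean normalized abundance over 48 samples (log2, x axis) and its fitted difference, cyproheptadine minus loxapine (log2, y axis). Interferon-stimulated genes, red, lie below 0 down to -1.67 for Zbp1, ATF4 stress genes, blue, lie mostly above 0 up to 0.97 for Slc7a11, and sterol synthesis enzymes, green, lie close to 0.

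Called genes were ranked by the size of their difference, keeping those whose mean reached 6 and whose groups did not overlap. The 10 with the largest higher values were Cdsn, Slc7a11, Aldh1l2, Cth, Trib3, Vldlr, Chac1, Atf3, Stbd1 and Hk2, of which 7 belong to a list of 35 ATF4 stress genes. The 10 with the largest lower values were Tgtp1, Iigp1, Zbp1, Oas3, Dhx58, Oasl2, Gbp3, Phf11d, Ifit3b and Mx2, of which 5 (Zbp1, Dhx58, Oasl2, Ifit3b and Mx2) belong to the list of 35 interferon-stimulated genes. Tgtp1, Iigp1 and Gbp3 belong to a list of interferon-inducible GTPases that was made after their values were seen. All 20 were called with any 1 library left out. Relative to the conditions of the same slots, 8 of the 20 were no longer called, which were Slc7a11 and, among the lower genes, Tgtp1, Iigp1, Zbp1, Oas3, Gbp3, Phf11d and Mx2.

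The interferon-stimulated genes were lower with cyproheptadine than with loxapine almost as a whole list. Of 35 tested, 34 were called lower and 0 higher, with a median difference of -1.07 beside 0.0031 over all genes. Groups did not overlap for 34 of the 35, beside 32.6% of all genes. Without cyproheptadine replicate 1, 30 of the 35 were called lower and the median was -0.83. The mean level of the list was 7.79, 8.32 and 8.46 in the cyproheptadine samples and 9.11, 9.31 and 9.31 in the loxapine samples. In the vehicle samples it was 9.11, 8.84 and 9.04, so every cyproheptadine sample lay below every vehicle sample, and the loxapine samples lay at or above them.

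Genes for 3 cytosolic sensors of viral RNA were lower. Dhx58, which encodes LGP2, measured 6.50, 7.11 and 7.29 with cyproheptadine and 8.42, 8.66 and 8.58 with loxapine. The difference was -1.59 (SE 0.24, adjusted p = 4.26e-05), 3.00-fold lower. Ifih1, which encodes MDA5, differed by -0.98 (SE 0.17, adjusted p = 0.000148) and Ddx58, which encodes RIG-I, by -0.81 (SE 0.14, adjusted p = 0.000217). For all 3 sensors the highest cyproheptadine sample was below the lowest loxapine sample. Zbp1, a sensor of Z-form nucleic acids, measured 4.78, 5.32 and 5.51 with cyproheptadine and 6.63, 7.03 and 6.98 with loxapine, with no overlap. Its difference of -1.67 (SE 0.29, adjusted p = 0.000149) was the largest of the list. The antisense gene Dhx58os overlaps Dhx58 (GRCm38, chromosome 11, 100694884 to 100704271, minus strand). The library kit keeps strand, but the sources used here do not state whether strand was used in counting.

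The 2',5'-oligoadenylate synthetases and their relatives, a family known for activating RNase L, were lower with cyproheptadine. Oasl2 measured 7.95, 8.99 and 9.08 with cyproheptadine and 10.11, 10.30 and 10.33 with loxapine, a difference of -1.56 (SE 0.26, adjusted p = 0.000113). Oas3 measured 4.98, 5.74 and 6.04 and 6.87, 7.28 and 7.39. In both genes replicate 1 of cyproheptadine was the lowest of the 6 samples, and the groups did not overlap. Oas2, Oas1a and Oasl1 differed by -1.48, -0.97 and -0.96, and all 3 were called. Mx2 and Mx1, which encode antiviral dynamin-like GTPases, differed by -1.40 and -1.24.

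Ifit3 is a member of the IFIT family, whose products bind viral RNA ends. It measured 9.54, 9.86 and 9.93 with cyproheptadine and 11.16, 11.12 and 11.19 with loxapine. The difference was -1.38 (SE 0.18, adjusted p = 1.18e-05), and the groups did not overlap. Ifit3b differed by -1.44, Ifit1 by -1.20 and Ifit2 by -0.97, all called. Ifit3 and Ifit3b are close copies on chromosome 19, so reads may have been split between them and the separate values are uncertain. The ubiquitin-like modifier Isg15 measured 8.60, 9.48 and 9.67 with cyproheptadine and 10.66, 10.62 and 10.55 with loxapine, again without overlap. Its difference was -1.35 (SE 0.23, adjusted p = 0.000107). Usp18, which removes ISG15 from proteins, differed by -1.02.

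Factors known to drive such genes are themselves members of the list and are counted in it. Irf7 measured 8.61, 9.21 and 9.49 with cyproheptadine and 10.00, 10.28 and 10.28 with loxapine, a difference of -1.08 (SE 0.24, adjusted p = 0.00232). Stat2 differed by -0.83 (SE 0.16, adjusted p = 0.000623). Irf9, the DNA-binding partner of STAT2, differed by -0.68 (SE 0.13, adjusted p = 0.000645). These 3 factors had groups without overlap, and loxapine minus vehicle lay between -0.11 for Irf7 and 0.22 for Stat2. Rnf31 overlaps Irf9 on the same strand, where strand cannot separate reads. The secreted chemokines Cxcl10 and Ccl5, which attract T cells, differed by -1.25 (SE 0.21, adjusted p = 0.000137) and -1.09 (SE 0.19, adjusted p = 0.000219). Cxcl10 measured 8.46, 9.61 and 9.26 with cyproheptadine, 10.28, 10.43 and 10.37 with loxapine and 9.74, 9.39 and 9.63 with vehicle. Here the loxapine samples lay above the vehicle samples, whereas the cyproheptadine samples overlapped them. Ifi27, which encodes a mitochondrial protein, was the 1 member of the list not called, with a difference of -0.15 and a 95% interval from -0.34 to 0.03.

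**Figure D2:**
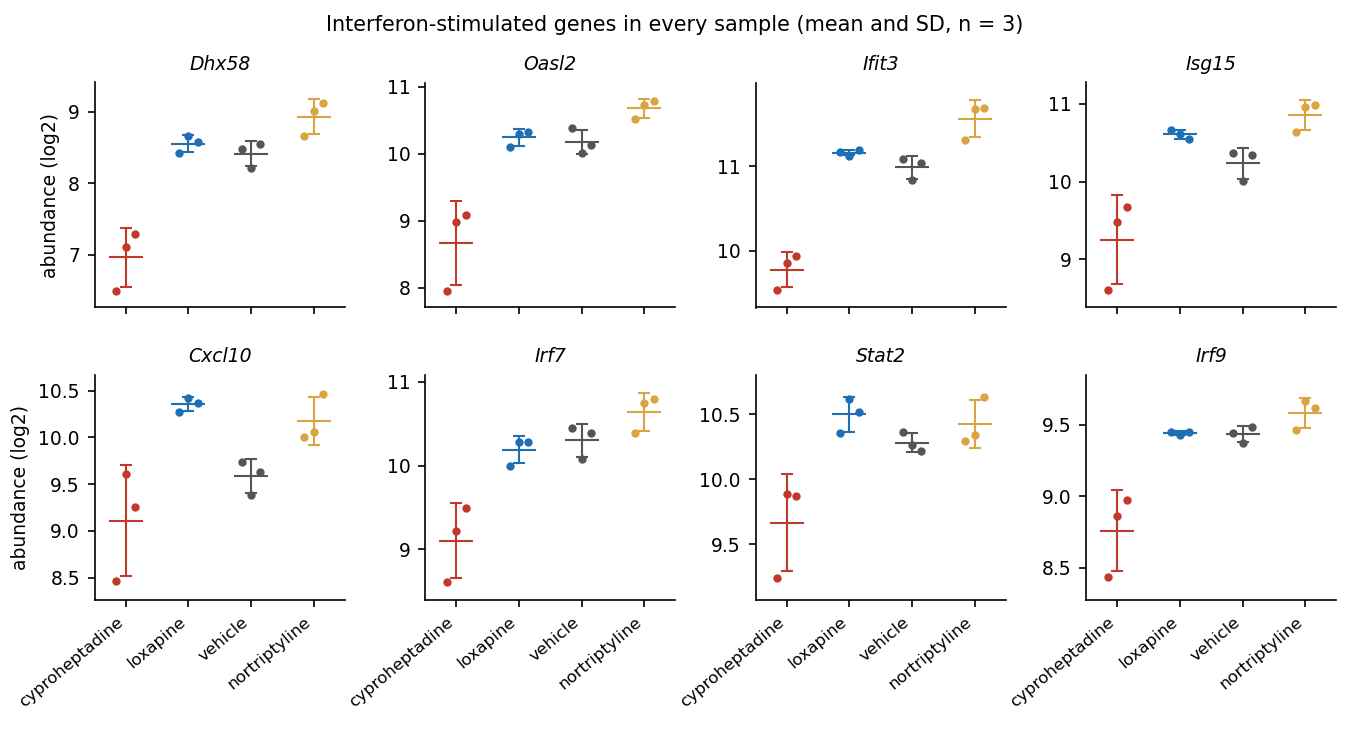
Normalized abundance (log2, y axis) of 8 interferon-stimulated genes in the 3 samples of cyproheptadine, loxapine, vehicle and nortriptyline (points), with the mean and SD as bars. In all 8 genes the cyproheptadine samples lie below the loxapine samples, and the nortriptyline samples, collected in the slots of loxapine, have the highest mean in every panel except Cxcl10 and Stat2, where loxapine has it.

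Promoters of 3 members are shown because the genes of the list moved together and are known to be induced through the interferon-stimulated response element. Of the 35 genes, 23 had an entry in the RefSeq promoter table (GRCm38.p6). The motif, taken as GAAA followed after any 2 bases by GAAA and searched on both strands of the 250 bases before the start site, was present in 9 of the 23 (39.1%), beside 317 of 10081 tested genes with an entry (3.14%). The called members with the largest differences and a match are given 5′ to 3′ on the gene's strand, with the matches in capitals, and of Ifit3b and Ifit3 only the first is shown. They are Ifit3b at chr19:34607707-34607956 (plus strand), Isg15 at chr4:156200819-156201068 (minus strand) and Cxcl10 at chr5:92348890-92349139 (minus strand).
Ifit3b: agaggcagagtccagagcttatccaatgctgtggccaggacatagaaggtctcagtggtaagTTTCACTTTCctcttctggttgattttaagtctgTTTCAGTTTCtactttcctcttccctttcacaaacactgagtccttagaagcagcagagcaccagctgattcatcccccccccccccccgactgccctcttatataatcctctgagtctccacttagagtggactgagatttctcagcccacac
Isg15: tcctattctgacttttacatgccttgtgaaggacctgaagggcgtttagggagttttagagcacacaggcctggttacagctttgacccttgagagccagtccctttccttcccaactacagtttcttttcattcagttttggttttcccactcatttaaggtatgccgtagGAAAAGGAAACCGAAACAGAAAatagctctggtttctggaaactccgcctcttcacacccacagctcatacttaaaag
Cxcl10: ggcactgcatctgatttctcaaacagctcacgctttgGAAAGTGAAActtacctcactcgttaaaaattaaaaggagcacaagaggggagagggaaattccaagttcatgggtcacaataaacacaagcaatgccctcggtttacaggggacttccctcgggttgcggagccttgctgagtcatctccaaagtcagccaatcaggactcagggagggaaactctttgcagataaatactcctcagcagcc
Counted from the start site, matches began at -188 and -154 in Ifit3b, on the strand opposite to the gene, and at -78, -72 and -66 in Isg15, where they overlap each other. In Cxcl10 the single match began at -213. A match describes the sequence only and was not tested for binding.

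Further interferon genes were put in 3 groups after their values had been seen. Of 16 tested interferon-inducible GTPases, which coat the vacuoles of intracellular pathogens, 13 were lower and 0 higher, with a median difference of -1.18. Relative to the same slots 2 of the 16 were lower, with a median of -0.61, and 12 of the 16 were higher with nicotinamide and nortriptyline in the slot contrast. Tgtp1 had the largest difference of all named genes. It measured 4.707, 5.121 and 4.763 with cyproheptadine and 6.558, 7.002 and 7.055 with loxapine, and no cyproheptadine sample came within 1 of a loxapine sample. The difference was -2.01 (SE 0.33, adjusted p = 8.76e-05), 4.03-fold, and relative to the same slots -1.06 (adjusted p = 0.113). Its close copy Tgtp2 differed by -1.34, and reads may have been split between both genes. Iigp1 measured 4.95, 5.10 and 5.19 with cyproheptadine and 6.58, 6.86 and 6.96 with loxapine, and Gbp3 measured 7.33, 7.94 and 8.15 and 9.18, 9.42 and 9.49. Neither gene had overlapping groups.

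Of 10 tested genes of MHC class I antigen presentation, 8 were lower and 0 higher, and relative to the same slots 4 were lower. Psmb10, a subunit of the immunoproteasome, differed by -0.86 (SE 0.15, adjusted p = 0.000196), and the peptide transporter genes Tap1 and Tap2 by -0.64 and -0.62. The class I heavy chain H2-K1 was not called, with a difference of -0.18 and a 95% interval from -0.40 to 0.03, nor was B2m, with -0.18 and an interval from -0.39 to 0.04. On a mixed list of genes tied to interferon ligands, receptors and sensing, 7 of 24 tested were lower and 0 higher, with a median of -0.09. The 7 were Tlr3 (-0.63), Irf1 (-0.56), Adar (-0.48), Socs1 (-0.36), Samhd1 (-0.34), Tyk2 (-0.20) and Ifngr2 (-0.20). Relative to the same slots, 4 of the 24 were lower. The type I receptor chain Ifnar1 had 95% bounds from -0.12 to 0.09, the kinase Jak1 from -0.08 to 0.11, the adaptor Mavs from -0.05 to 0.15 and the factor Irf3 from -0.24 to 0.10, all within ±0.25.

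Interferon genes also differed between the reference conditions of the slots. In the slot contrast, 799 of all genes (5.96%) were higher and 1232 (9.19%) lower with nicotinamide and nortriptyline. Among the 35 interferon-stimulated genes, 19 were higher and 0 lower there, with a median of 0.38. The list's mean level was 9.25, 9.53 and 9.54 with nicotinamide and 9.24, 9.48 and 9.62 with nortriptyline, against 9.10, 9.07 and 9.09 with selisistat. The other compounds of the loxapine slots were not all higher than selisistat. 4-Deoxypyridoxine measured 9.19, 9.64 and 9.45, sodium butyrate 9.11, 8.85 and 8.98, and cysteamine 9.06, 9.10 and 8.80. In this contrast the slots and the compounds that stand for them cannot be told apart.

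Among the STHdhQ111 samples of each slot, the cyproheptadine sample was the lowest. At day 3 time 1, cyproheptadine replicate 1 measured 7.79, DKI 7.93, and the other 5 compounds collected there 8.65 to 9.55. At day 2 time 2 and day 3 time 3, replicates 2 and 3 measured 8.32 and 8.46, beside 8.62 and 8.72 with DKI, 8.84 and 9.04 with vehicle and 9.07 and 9.09 with selisistat. The loxapine samples lay inside the range of the other 5 compounds of their slots in all 3 slots. The difference between the compounds was then taken relative to vehicle and selisistat for cyproheptadine and to nicotinamide and nortriptyline for loxapine. On that scale 295 of all genes (2.2%) were higher and 389 (2.9%) lower. Of the interferon-stimulated genes, 11 of 35 were called lower and 0 higher, with a median difference of -0.64. Dhx58 (-1.10, adjusted p = 0.0237), Oasl2 (-1.20, adjusted p = 0.0237) and Ifit1 (-0.93, adjusted p = 0.0205) were among the 11. Zbp1 (-0.91, adjusted p = 0.121) and Irf7 (-0.85, adjusted p = 0.081) were not. This comparison rests on 18 samples and leaves cyproheptadine replicate 1 without a reference of its own slot. Its SEs are larger than those of the direct comparison, 0.293 beside 0.241 for Dhx58, so a lost call need not mean a smaller difference.

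**Figure D3:**
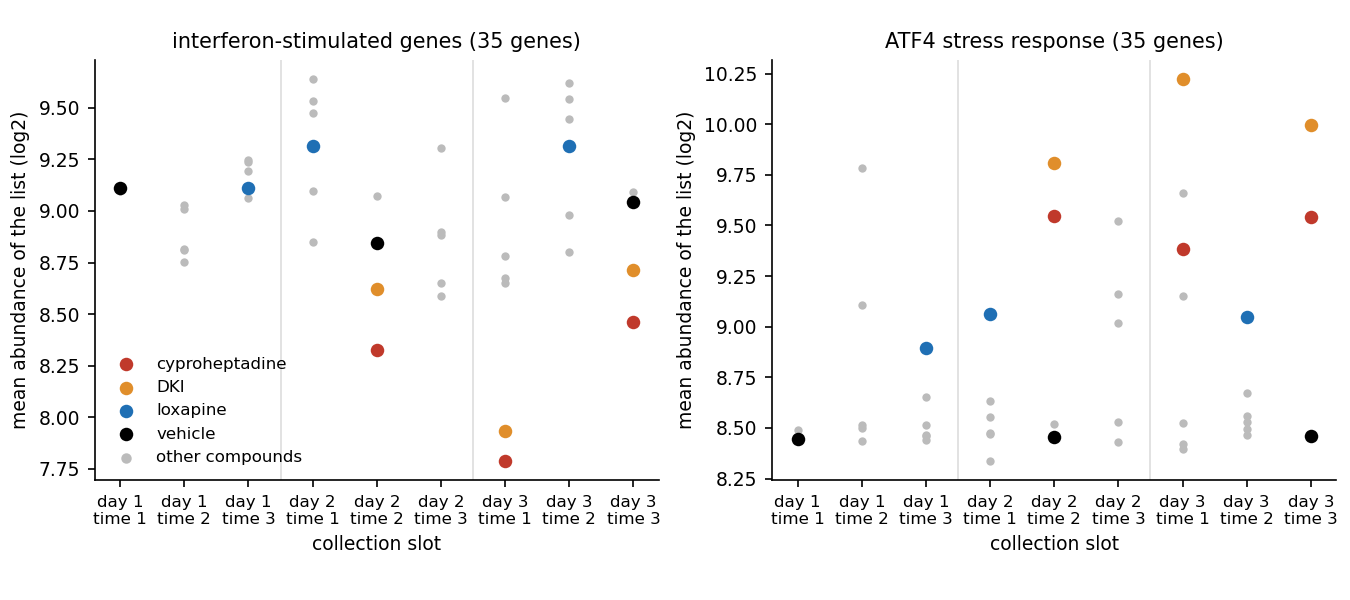
Mean normalized abundance (log2, y axis) of 35 interferon-stimulated genes (left) and 35 ATF4 stress genes (right) in each of 45 STHdhQ111 samples, by slot of collection (x axis). Among these samples cyproheptadine (red) is lowest of its slot on the left in all 3 slots, from 7.79 to 8.46, and on the right it lies between 9.38 and 9.55, above loxapine (blue), which lies between 8.89 and 9.06.

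Genes of the ATF4 stress response were higher with cyproheptadine. Of 35 tested, 26 were called higher and 0 lower, with a median difference of 0.47. The list's mean level was 9.38, 9.55 and 9.54 with cyproheptadine, 8.89, 9.06 and 9.05 with loxapine, and 8.45, 8.46 and 8.46 with vehicle. The 3 groups did not overlap, and loxapine lay between vehicle and cyproheptadine. Each of the 35 genes had a positive difference from vehicle with both compounds, with a median of 0.96 for cyproheptadine and 0.52 for loxapine. Both values use the same vehicle samples. In the slot contrast 1 gene of the list was higher and 0 lower, with a median of 0.03, and relative to the conditions of the same slots 23 of 35 were higher and 0 lower.

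Among the factors of the response, Atf4 itself measured 12.19, 12.21 and 12.24 with cyproheptadine, 11.68, 11.81 and 11.74 with loxapine and 10.81, 10.95 and 10.97 with vehicle. The difference between the compounds was 0.47 (SE 0.09, adjusted p = 0.000535), 1.39-fold. Ddit3, which encodes the pro-apoptotic factor CHOP, measured 9.85, 9.96 and 10.13 and 9.55, 9.61 and 9.56, a difference of 0.40 (SE 0.13, adjusted p = 0.0352). Both genes had groups without overlap. The annotation holds a further entry named Ddit3 on the same strand, and Mars overlaps Ddit3 on the other strand. Atf3, a repressor induced by ATF4, differed by 0.68 (SE 0.14, adjusted p = 0.0011) and Atf5 by 0.47. Cebpb, a partner of ATF4, was not called, with a difference of 0.04 and a 95% interval from -0.23 to 0.30, although its level exceeded vehicle with both compounds. Feedback genes of the response are also counted in the list. Trib3, a pseudokinase that restrains ATF4 and CHOP, measured 9.02, 9.08 and 9.19 with cyproheptadine, 8.06, 8.28 and 8.26 with loxapine and 7.07, 6.96 and 6.83 with vehicle. Its difference was 0.90 (SE 0.21, adjusted p = 0.00384). Ppp1r15a, which encodes GADD34, the subunit that directs dephosphorylation of eIF2, differed by 0.49.

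Redox and sulfur amino acid genes had some of the largest differences. Chac1, which degrades glutathione, measured 9.17, 9.19 and 9.25 with cyproheptadine and 8.37, 8.58 and 8.58 with loxapine, a difference of 0.69 (SE 0.14, adjusted p = 0.00119). Slc7a11, the cystine importer, measured 8.27, 8.42 and 8.33 and 7.18, 7.42 and 7.52, beside 6.24, 6.25 and 6.06 with vehicle. Its difference was 0.97 (SE 0.23, adjusted p = 0.00505), and relative to the same slots it was 0.84 (adjusted p = 0.076), past no threshold. Cth, which makes cysteine from cystathionine, differed by 0.94 (SE 0.16, adjusted p = 0.000115). With loxapine Cth measured 5.70, 5.95 and 5.93, near the 5.67, 5.62 and 5.48 of vehicle, and with cyproheptadine 6.63, 6.84 and 6.94.

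The list also holds enzymes that make serine, glycine and one-carbon units. Aldh1l2, a mitochondrial folate enzyme, measured 9.57, 10.03 and 10.03 with cyproheptadine and 8.66, 9.02 and 9.07 with loxapine, a difference of 0.95 (SE 0.15, adjusted p = 5.32e-05). Mthfd2, Psph, Psat1 and Shmt2 differed by 0.57, 0.57, 0.44 and 0.39, all called. Phgdh, the first enzyme of serine synthesis, was not called, with 0.20 and a 95% interval from 0.01 to 0.40. Asns, which makes asparagine, measured 10.75, 10.82 and 10.88 with cyproheptadine and 10.00, 10.30 and 10.29 with loxapine, a difference of 0.61 (SE 0.11, adjusted p = 0.000241). The transporters Slc7a5, Slc7a1 and Slc1a4 differed by 0.60, 0.50 and 0.46. Vldlr, a lipoprotein receptor induced by ATF4, measured 9.49, 9.46 and 9.35 and 8.59, 8.86 and 8.73, a difference of 0.71 (SE 0.12, adjusted p = 0.000145). No cyproheptadine sample overlapped a loxapine sample in any of these called genes.

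**Figure D4:**
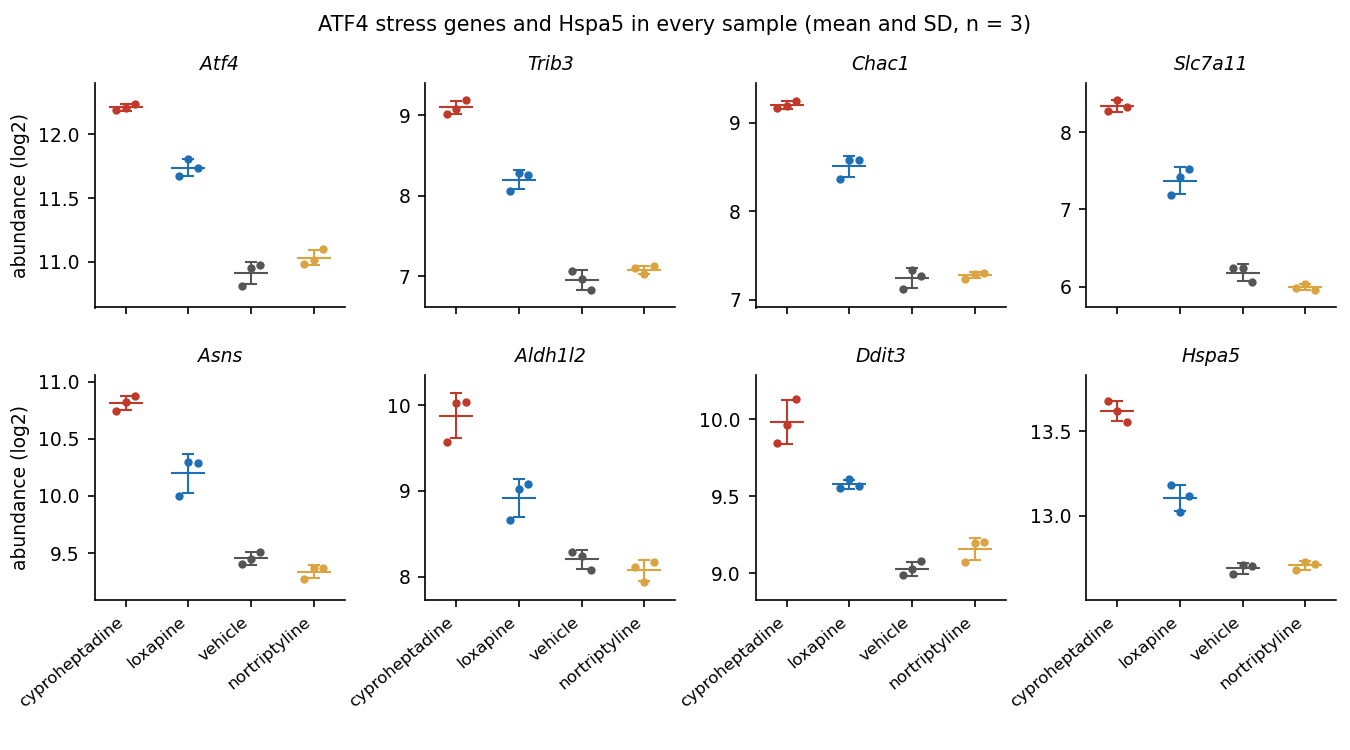
Normalized abundance (log2, y axis) of 7 ATF4 stress genes and the chaperone gene Hspa5 in the 3 samples of cyproheptadine, loxapine, vehicle and nortriptyline (points), with the mean and SD as bars. In all 8 genes cyproheptadine is highest, loxapine lies between it and vehicle, and vehicle and nortriptyline are lowest.

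Promoters of 3 members carrying the response element of C/EBP and ATF factors are shown because most of the list moved together. Of the 35 genes, 30 had an entry in the table, and the motif TGATGNAA, searched on both strands of the 250 bases before the start site, was found in 7 of them (23.3%), beside 246 of 10081 tested genes (2.44%). They are Slc7a11 at chr3:50443614-50443863 (minus strand), Vldlr at chr19:27216770-27217019 (plus strand) and Chac1 at chr2:119350992-119351241 (plus strand), again with matches in capitals.
Slc7a11: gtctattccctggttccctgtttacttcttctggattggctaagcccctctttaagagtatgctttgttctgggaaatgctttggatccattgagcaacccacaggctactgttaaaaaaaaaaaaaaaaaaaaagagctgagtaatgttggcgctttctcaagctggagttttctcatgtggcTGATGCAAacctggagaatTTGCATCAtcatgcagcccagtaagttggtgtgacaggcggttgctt
Vldlr: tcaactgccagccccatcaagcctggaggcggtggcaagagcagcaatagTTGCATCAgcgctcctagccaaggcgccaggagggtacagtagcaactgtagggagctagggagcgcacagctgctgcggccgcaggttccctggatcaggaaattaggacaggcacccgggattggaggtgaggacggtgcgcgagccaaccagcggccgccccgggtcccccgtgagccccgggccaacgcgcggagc
Chac1: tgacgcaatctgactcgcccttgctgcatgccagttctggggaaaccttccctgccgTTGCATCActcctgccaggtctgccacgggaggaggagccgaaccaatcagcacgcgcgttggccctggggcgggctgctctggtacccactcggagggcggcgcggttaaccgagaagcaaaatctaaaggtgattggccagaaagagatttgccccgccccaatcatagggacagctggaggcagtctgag
In Slc7a11 the matches began at -66 and -47, on opposite strands, in Vldlr, 1 of whose 2 listed promoters is shown, at -200 and in Chac1 at -193. Among the interferon-stimulated genes, 0 of the 23 with an entry held this motif. At a share of 2.44% over all tested genes, 23 genes are too few for that count to set them apart.

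Aminoacyl-tRNA synthetases, which load amino acids onto tRNA and include known ATF4 targets, were higher in 12 of 20 tested and lower in 0, with a median of 0.27. Wars measured 9.13, 9.31 and 9.32 with cyproheptadine and 8.73, 8.88 and 8.85 with loxapine, a difference of 0.43 (SE 0.09, adjusted p = 0.00118). Eprs, Gars and Sars differed by 0.38, 0.37 and 0.36. Vars, Mars, Qars, Kars and Farsa had differences of -0.07 to 0.01 and 95% intervals within ±0.25. Relative to the same slots, 5 of the 20 were higher.

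Chaperones and degradation factors of the ER were higher in 11 of 21 and lower in 0, with a median of 0.23. Relative to the same slots, 7 of the 21 were higher and 0 lower, with a median of 0.14. Hspa5, which encodes the chaperone BiP, measured 13.68, 13.62 and 13.56 with cyproheptadine, 13.18, 13.02 and 13.12 with loxapine and 12.65, 12.71 and 12.71 with vehicle. The groups were well apart, with a difference of 0.51 (SE 0.09, adjusted p = 0.000107). Xbp1, a factor of the unfolded protein response, differed by 0.44 (SE 0.07, adjusted p = 5.35e-05) and the lectin chaperone Calr by 0.41 (SE 0.08, adjusted p = 0.000507). The sensor Ern1, which encodes IRE1, differed by 0.27 (adjusted p = 0.0458), but this call was lost in 5 of 6 fits without 1 library, and the value relative to the same slots was -0.03. Of the eIF2 kinases and the subunits of eIF2 and eIF2B, a list also set after values were seen, 3 of 13 were higher and 1 lower. Relative to the same slots, 1 of the 13 was higher and 1 lower. Eif2ak3, which encodes PERK, the ER-resident eIF2 kinase, differed by 0.22 (adjusted p = 0.0226). Eif2ak2, which encodes PKR, is induced by interferon and was the 1 lower gene, at -0.56 (adjusted p = 0.000991).

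Several genes outside these lists were among the largest. Cdsn, which encodes corneodesmosin, an adhesion protein of the skin, measured 7.35, 7.56 and 7.50 with cyproheptadine, 6.07, 6.45 and 6.30 with loxapine and 5.55, 5.69 and 5.43 with vehicle. It was the 1 gene higher by more than 1, at 1.19 (SE 0.24, adjusted p = 0.000957), 2.29-fold. Stbd1, a glycogen-binding protein, measured 7.26, 7.26 and 7.22 with cyproheptadine and 6.52, 6.74 and 6.52 with loxapine. In Stbd1 the loxapine samples lay near vehicle, whose values were 6.49, 6.46 and 6.45, and the difference was 0.65 (SE 0.12, adjusted p = 0.000395). Phf11d was lower, at -1.45 (SE 0.28, adjusted p = 0.000452), and relative to the same slots at -0.80 (adjusted p = 0.166).

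Collagens and other matrix genes were lower with cyproheptadine. Of 35 tested, 14 were lower and 0 higher, with a median of -0.22, and relative to the same slots 9 were lower. The list's mean level was 10.086, 10.200 and 10.035 with cyproheptadine and 10.397, 10.322 and 10.337 with loxapine. With vehicle it was 10.268, 10.210 and 10.216, so every loxapine sample lay above and every cyproheptadine sample below the vehicle samples. Col3a1, the chain of type III collagen, measured 11.08, 11.16 and 10.94 with cyproheptadine, 12.30, 12.09 and 11.97 with loxapine and 12.51, 12.39 and 12.48 with vehicle. For this gene, unlike the list mean, vehicle was highest, and the 3 groups were ordered without overlap. The difference was -1.05 (SE 0.13, adjusted p = 5.82e-06), 2.07-fold. The type VI chains moved alike, and Col6a1 measured 12.84, 12.99 and 12.83 and 13.64, 13.44 and 13.44. Col6a1 differed by -0.62 (SE 0.09, adjusted p = 1.95e-05), Col6a2 by -0.61 and Col6a3 by -0.69. Col1a1 and Col1a2, the chains of type I collagen, differed by -0.41 and -0.35, and Fbn1, which encodes fibrillin-1, by -0.38, all called. Genes for fibronectin (Fn1, -0.25), osteonectin (Sparc, -0.11) and the matrix protease Mmp2 (-0.14) were not called. Col3a1 and the 3 type VI chains kept their calls in every alternative fit.

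Genes that process collagen, and genes of TGF-beta signalling, which drives collagen expression, were listed after values were seen. Of 14 processing genes, 3 were lower and 2 higher, and relative to the same slots 1 was lower and 2 higher. Loxl3, a lysyl oxidase that cross-links collagen, measured 7.73, 8.04 and 7.90 with cyproheptadine and 8.59, 8.62 and 8.56 with loxapine, without overlap, a difference of -0.71 (SE 0.08, adjusted p = 2.04e-06). The prolyl hydroxylase subunits P4ha1 and P4hb, of which the latter is also an ER disulfide isomerase, were the 2 higher genes, at 0.34 and 0.22. Of 16 TGF-beta genes, 6 were lower and 0 higher, beside 5.56% lower over all genes. Relative to the same slots, 3 of the 16 were lower. The ligands Tgfb3 and Tgfb2 differed by -0.56 and -0.43, the receptors Tgfbr2 and Tgfbr3 by -0.35 and -0.35, and the signal transducer Smad3 by -0.27. The target Tgfbi differed by -0.44. The ligand Tgfb1 (-0.11, 95% interval from -0.25 to 0.03) and the shared transducer Smad4 (0.08, from -0.01 to 0.16) were not called.

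Enzymes of cholesterol synthesis did not differ detectably between the compounds. Of 10 enzymes of the mevalonate branch and 11 from squalene to cholesterol, 0 were called, in the main fit and in each alternative. Cyp51, a demethylase of lanosterol, measured 13.18, 13.06 and 12.98 with cyproheptadine, 13.10, 12.92 and 12.99 with loxapine and 12.16, 12.24 and 12.23 with vehicle. The groups of the compounds overlapped, and both lay above vehicle. The difference was 0.07, with a 95% interval from -0.14 to 0.28. Hmgcs1 and Fdps, enzymes of the mevalonate branch, had differences of -0.12 (from -0.28 to 0.04) and 0.03 (from -0.15 to 0.21), and Msmo1, a sterol oxidase, of 0.06 (from -0.17 to 0.28). Dhcr7, the last reductase of the pathway, differed by -0.03 (from -0.21 to 0.15), Sqle by 0.04 (from -0.11 to 0.19) and Lss by 0.09 (from -0.11 to 0.29). Intervals lay within ±0.25 for 5 of the 10 and 5 of the 11. Over all 21 enzymes they ran from -0.36 to 0.34, so a difference of that size in a single enzyme was not excluded by these samples. Compared with the same vehicle samples, the median difference of the mevalonate enzymes was 0.51 with cyproheptadine and 0.49 with loxapine, and of the later enzymes 0.57 and 0.58.

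Genes that sense, take up or export sterol were called higher in 2 of 20 and lower in 0, beside 4.91% and 5.56% of all genes. Tmem97, the sigma-2 receptor, which binds the cholesterol transporter NPC1, measured 10.03, 10.01 and 10.06 with cyproheptadine and 9.75, 9.73 and 9.71 with loxapine, without overlap, a difference of 0.30 (SE 0.08, adjusted p = 0.0102). Npc1 differed by 0.22 (adjusted p = 0.0322), a call lost in 4 of 6 fits without 1 library. Srebf2, which encodes SREBP2, was not called, with a difference of -0.11 and a 95% interval from -0.25 to 0.03. Of 16 genes of fatty acid synthesis, 1 was higher, Acsl1, at 0.28 (adjusted p = 0.00207), and 0 were lower, close to the shares over all genes.

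Lysosomal proteins were higher in 6 of 37 tested genes and lower in 1, with a median of 0.10, and 20 of the 37 had intervals within ±0.25. Relative to the same slots 1 of the 37 was higher and 0 lower. Gla, the alpha-galactosidase, measured 9.48, 9.61 and 9.72 with cyproheptadine and 9.31, 9.30 and 9.30 with loxapine, a difference of 0.29 (SE 0.06, adjusted p = 0.00217). The heparan sulfate-degrading enzyme gene Naglu differed by 0.27, the protease gene Ctsl differed by 0.21 and the sialidase gene Neu1 by 0.21, whereas Ctsh was the 1 lower gene, at -0.25, and had 0.01 relative to the same slots. All 16 subunits of the vacuolar proton pump had positive differences, from 0.06 to 0.24, and 5 were called, 0 of them relative to the same slots. They include Atp6v1h (0.24), Atp6v1c1 (0.20), Atp6v1d (0.18) and Atp6v0a2 (0.16, and -0.01 relative to the same slots). Of 42 autophagy genes, 3 were higher and 2 lower, close to the 4.91% and 5.56% of all genes, 28 had intervals within ±0.25, and 0 were called relative to the same slots. Sqstm1, which encodes the cargo receptor p62, differed by 0.30 (adjusted p = 0.0283) and the mitophagy receptor Bnip3 by 0.45 (adjusted p = 0.015). Tfeb, a factor that drives lysosomal genes, differed by -0.28 (adjusted p = 0.0479) and the autophagy receptor gene Calcoco1 by -0.26. Map1lc3b, which encodes LC3, was not called, with a 95% interval from -0.05 to 0.17. The calls of Sqstm1, Bnip3 and Tfeb were lost in 3, 2 and 5 of the 6 fits without 1 library.

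**Figure D5:**
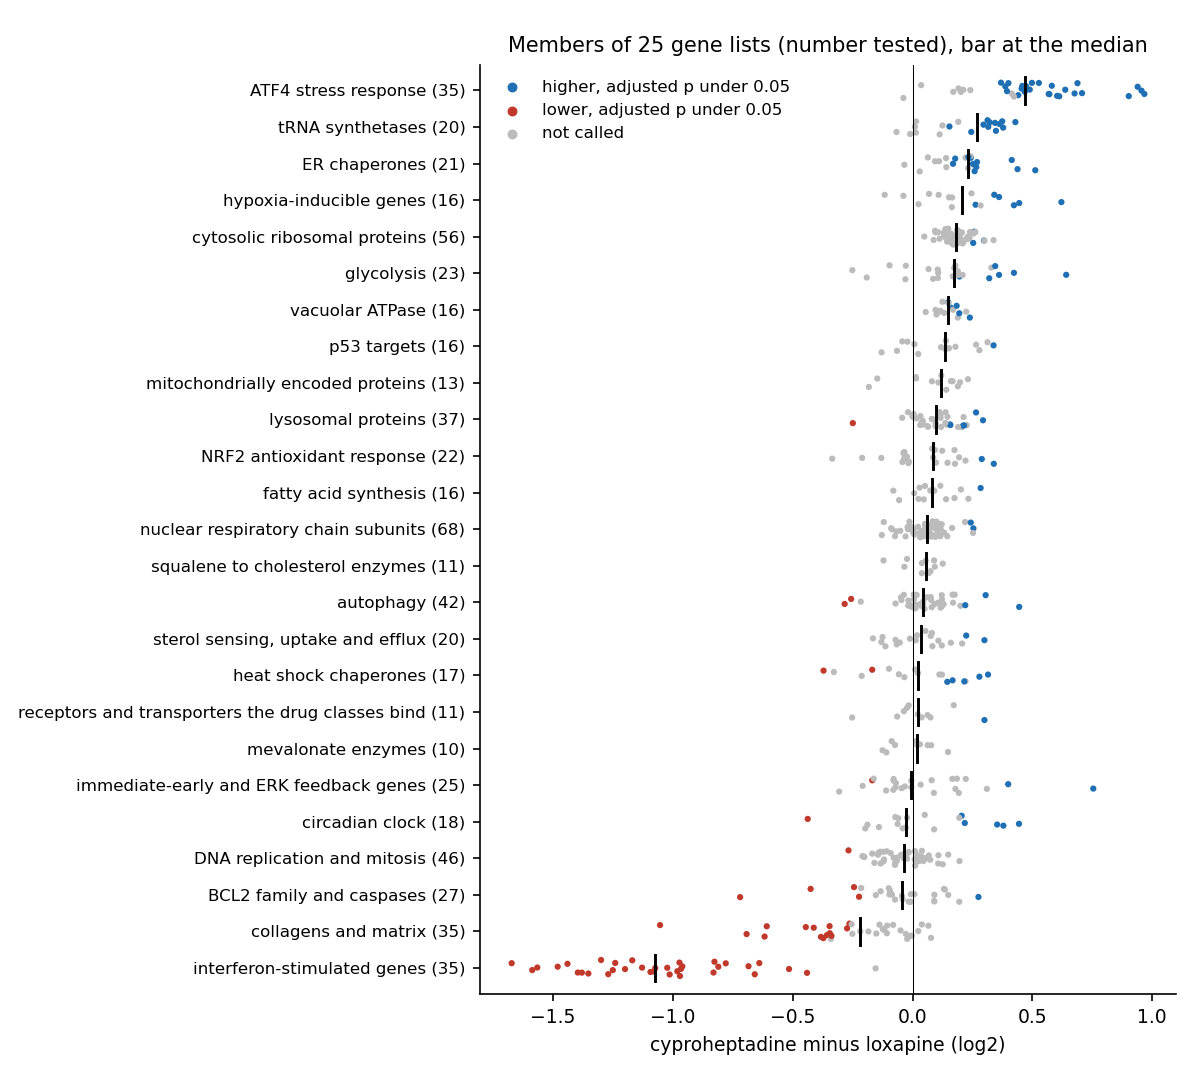
Differences, cyproheptadine minus loxapine (log2, x axis), of the tested members of 25 gene lists (rows), each gene a point with random vertical scatter and the black bar at the list's median. Medians run from 0.47 for the ATF4 stress response to -1.07 for the interferon-stimulated genes, and both sterol enzyme lists, at 0.02 and 0.06, have no coloured point.

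Glycolysis genes were higher in 6 of 23 and lower in 0, with a median of 0.17. Hk2, a hexokinase that starts glycolysis, measured 8.64, 8.97 and 8.97 with cyproheptadine, 7.94, 8.33 and 8.40 with loxapine and 7.52, 7.42 and 7.33 with vehicle. The groups did not overlap, with loxapine between vehicle and cyproheptadine, and the difference was 0.64 (SE 0.14, adjusted p = 0.00182). The glucose importer Slc2a1 differed by 0.42 (adjusted p = 0.00801) and the lactate exporter Slc16a1 by 0.34 (adjusted p = 0.00211). Of 16 hypoxia-inducible genes, 6 were higher and 0 lower, of which 4 (P4ha1, Pdk1, Slc2a1 and Bnip3) also belong to lists named above or to glycolysis. Relative to the same slots, 4 of the 16 were higher. Ero1l, which reoxidises disulfide isomerases in the ER, measured 10.01, 10.53 and 10.43 with cyproheptadine and 9.58, 9.75 and 9.77 with loxapine, without overlap, a difference of 0.62 (SE 0.10, adjusted p = 0.000107).

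Few respiratory chain genes were called, and over all genes 4.91% were higher and 5.56% lower. Of 68 identifiers tested for nuclear genes, 2 were higher, Ndufa12 (0.25) and Atp5g1 (0.24), and 0 lower, with a median of 0.06 and 38 intervals within ±0.25. Of 13 genes encoded in mitochondrial DNA, 0 were called, but their intervals ran from -0.63 to 0.74 and 0 lay within ±0.25. Those with the highest means, COX1 and COX2, had differences of 0.12 (from -0.21 to 0.45) and 0.20 (from -0.32 to 0.71). All 56 tested cytosolic ribosomal protein genes had positive differences, from 0.05 to 0.34, with a median of 0.18. Of the 56, 3 were called, Rpl5 (0.30), Rpl14 (0.26) and Rps4x (0.25), close to the 4.91% called higher over all genes. Groups did not overlap for 41 of the 56, beside 32.6% of all genes. Relative to the same slots, 7 of the 56 were higher, beside 2.2% of all genes.

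Among cell death genes, 4 of 27 were lower and 1 higher, beside 5.56% and 4.91% of all genes. Relative to the same slots, 2 of the 27 were lower and 1 higher. Casp12, an ER-associated caspase, measured 7.54, 7.44 and 7.40 with cyproheptadine, 8.23, 8.12 and 8.18 with loxapine and 8.47, 8.42 and 8.30 with vehicle. Vehicle was highest and the 3 groups did not overlap, and the difference was -0.72 (SE 0.10, adjusted p = 2.32e-05). Bmf, a BH3-only activator of cell death, differed by -0.42 (SE 0.11, adjusted p = 0.0106). Cycs, which encodes cytochrome c, was higher, at 0.28 (adjusted p = 0.0313), a call lost in 5 of 6 fits without 1 library, and Birc3, an inhibitor of apoptosis, was lower, at -0.24. Of 16 p53 targets, 1 was higher, Gadd45a, at 0.34, and of 46 genes of DNA replication and mitosis 1 was lower, Ccnb2, at -0.27. Both counts are close to or under the shares over all genes, 4.91% higher and 5.56% lower.

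Of 25 immediate-early and ERK feedback genes, 2 were higher and 1 lower, close to the 4.91% and 5.56% of all genes. Dusp4, a phosphatase of ERK, measured 6.01, 6.14 and 6.30 with cyproheptadine, 5.32, 5.40 and 5.47 with loxapine and 4.67, 4.72 and 4.61 with vehicle. The 3 groups did not overlap, and the difference was 0.75 (SE 0.16, adjusted p = 0.00167). Etv5, an ETS factor induced by ERK, differed by 0.40 and the AP-1 factor Fosl2 by -0.17. Of 18 clock genes, 5 were higher and 1 lower. Ciart, Hlf and Rora were higher by 0.44, 0.38 and 0.35, and Per3 was lower, at -0.44. Relative to the same slots, 1 of the 18 was higher and 0 lower, and Ciart, Per3 and Rora were no longer called. Each compound was sampled once at each collection time of the day, so time of day is balanced between them. Collection day is not, since only loxapine has a sample of day 1, and neither are day and time together. Of 22 NRF2 targets, 2 were higher, Srxn1 (0.34) and Txnrd1 (0.29), and 0 lower, beside 4.91% and 5.56% of all genes. Of 17 heat shock genes, 5 were higher and 2 lower. The mitochondrial chaperone gene Hspd1 was higher by 0.32, its partner Hspe1 by 0.28 and the small heat shock protein gene Hspb8 by 0.22, and the cytosolic Hspa1b was lower, at -0.37.

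Receptors and transporters that such drugs bind were mostly near the bottom of the scale. Of 38 listed, 29 were in the data and 11 reached the minimum mean of 1. Hrh1, the histamine H1 receptor, measured 1.05, 1.07 and 1.12 with cyproheptadine and 1.14, 1.14 and 1.16 with loxapine, a range in which the normalized values hardly vary. The serotonin transporter gene Slc6a4 and the muscarinic receptor gene Chrm1 measured 1.98 to 2.24 in these samples. The serotonin receptor genes Htr1b and Htr1d and the adrenergic receptor genes Adra1d and Adra2a had group means of 1.11 to 1.89, and Adra1b of 5.03 with cyproheptadine and 5.28 with loxapine. Adra1b was not called (-0.25, 95% interval from -0.43 to -0.07). The emopamil-binding protein gene Ebp, a sterol isomerase, was not called either (0.07, from -0.07 to 0.22). Tmem97, given above, was the 1 gene of this list called.

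Several of the smaller differences lost their call without a single library or relative to the same slots. Of 76 called genes named by rule, 31 lost the call in at least 1 of the 6 fits without 1 library. Besides those with counts given above, Atp5g1 and Ndufa12 lost it in 6, Atp6v0a2, Atp6v1c1, Hspb8, Hspe1 and Rpl14 in 5, and Atp6v1d, Birc3, Ctsh, Ctsl, Etv5, Fosl2 and Gadd45a in 4. Naglu, Pdk1 and Rps4x lost it in 3, Per3, Rpl5 and Slc2a1 in 2, and Atp6v1h, Bmf, Calcoco1, Ciart and Tmem97 in 1. No call of the 20 leading genes was among them. Relative to the same slots, 41 of the 76 lost the call, 18 of them in that alternative alone. Besides 8 of the 20 leading genes, those 18 were Oas2, Acsl1, Eprs, Sars, Gla, Hspa1b, Hspd1, Rora, Slc16a1 and Txnrd1, whose differences there included 0.15 for Acsl1 and 0.24 for Gla. On that scale 0 of 22 NRF2 targets, 2 of 23 glycolysis genes and 1 of 17 heat shock genes were called. The SEs are larger there. Hspa1b and Sars lost their calls although their differences stayed within -0.398 to -0.333 and 0.335 to 0.394 in all alternatives.

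Markers of cell identity are given last. Of the neural progenitor markers, Vim had a mean of 15.14 with cyproheptadine and 15.45 with loxapine, Sox9 9.18 and 9.43, Nes 5.00 and 5.14, and Sox2 4.75 and 4.78. Vim (-0.31) and Sox9 (-0.25) were called lower, and 7 markers were tested. Relative to the same slots, 0 of these 7 were called, and 2 of them were higher in the slot contrast. Of the striatal neuron markers, Ppp1r1b had means of 1.87 with cyproheptadine and 1.90 with loxapine, Penk 2.37 and 2.46 and Foxp1 9.77 and 9.84, none of them called, while Drd1, Gad1 and Gad2 were under the minimum. Of 3 neuron markers tested, Tubb3, a neuronal tubulin, was called higher (0.29), and the list's mean level was 5.44 ± 0.03 (SD, n = 3) with cyproheptadine and 5.29 ± 0.09 (SD, n = 3) with loxapine. Relative to the same slots 0 of the 3 were called. The fibroblast list, whose collagens are described above, had a mean level of 11.06 ± 0.13 (SD, n = 3) with cyproheptadine and 11.53 ± 0.07 (SD, n = 3) with loxapine, and 4 of 5 members were lower. The myeloid list had 6.67 ± 0.18 and 6.72 ± 0.09 over Csf1r, Ptprc and Tmem119, of which Tmem119 was lower (-0.52), while Aif1, Cx3cr1 and P2ry12 were under the minimum. The endothelial, astrocyte and oligodendrocyte lists had 0 of 11 members called. In cultured cells a change in the share of a cell state and a change in RNA per cell cannot be told apart in these bulk measurements, and the part of such shifts in the results was not tested.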

How the data were processed

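RNA was taken from 48 samples, poly(A) RNA libraries were made with a directional kit and sequenced single-end. Per the labels and the study's methods, the authors trimmed reads with Trimmomatic 0.36, quantified genes with RSEM against GRCm38.p5 and normalized with DESeq2. The deposited values are log2 normalized abundances, whose transformation is not given in the sources used here and shrinks low values. No counts were recovered from them, so depth is unknown and no counting interval is given. Each value was used as deposited. limma 3.58.1 (R 4.3.3, trend on) fitted condition and collection day to all 48 samples for the 13409 genes with a symbol and a mean of at least 1. Tests were two-sided, and genes with a Benjamini-Hochberg adjusted p under 0.05 were called. The model was tested on simulated data.

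Named genes were the 10 called genes in each direction with the largest differences, a mean of at least 6 and groups that did not overlap, up to 4 called members a list, or the 2 of highest mean where a list had no call. Further members were named for their role after their values were seen, and 6 lists were added then: interferon receptors and sensing, interferon-inducible GTPases, MHC class I, eIF2 kinases, collagen processing and TGF-beta. The members and all lists were chosen with earlier results of these data known. Alternatives changed the filter, threshold, covariates, scaling, samples and left-out library. Positions are from GENCODE (GRCm38) and promoters from RefSeq (GRCm38.p6). Further overlaps on the same strand include Camta1 for Per3 and Eid3 for Txnrd1.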

Additional observations from a re-analysis of the deposited data

How the results depend on the processing

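The count of 1405 genes differing between the compounds became 647 at an adjusted p under 0.01, 199 with a difference over 0.5, 886 with only the 6 samples and collection time as a block, and 684 relative to conditions of the same slots, where 430 genes were shared with the 1405. Leaving out 1 library gave 858 to 1250 genes, with 878 without cyproheptadine replicate 1 and 893, 858 and 881 without loxapine replicates 1, 2 and 3. The slot contrast, 2031 genes, ranged from 1286, without vehicle replicate 1, to 2240. Ern1, Ctsh and Atp6v0a2 reversed relative to the same slots, to -0.025, 0.012 and -0.0099. The causes were not tested. Interferon-stimulated genes were lower in 11 of 35 relative to the same slots and in 30 to 34 in the other alternatives, ATF4 stress genes higher in 22 to 29, matrix genes lower in 9 to 15, and sterol enzymes were called in 0. With the replicate block in place of the collection day, 1512 genes were called. Equal numbers were not taken as pairs, because replicates 1 came from different days. Residuals correlated by 0.355, 0.111 and 0.0929 for replicates 1, 2 and 3. Cyproheptadine replicate 2 and loxapine replicate 3 had a similar value, 0.116. Residuals within a group of 3 depend on each other, so these correlations cannot decide whether equal numbers are pairs. Groups of 3 samples, unknown depth and compressed low values limit what could be detected.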

Other observations

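Pizotifen, the remaining tricyclic of Group A, was given at 5 µM, and its values are set beside the others without a comparison because the doses differ. The mean level of the 35 interferon-stimulated genes was 8.76, 8.88 and 8.78 in its 3 samples (log2), and that of the 35 ATF4 stress genes 9.11, 9.16 and 9.15. DKI, given at 10 µM and collected in the same 3 slots as cyproheptadine, measured 7.93, 8.62 and 8.72 for the interferon-stimulated genes and 10.22, 9.81 and 10.00 for the ATF4 stress genes.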
